A study of Mus musculus with 15 samples.

Results

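The genes described here are 9 members of the interferon response: the immunity-related GTPases (IRG) Irgm1, Irgm2 and Igtp, the transcription factors Stat2, Irf9, Irf1 and Irf7, and the effectors Isg15 and Ifitm3. They are 9 of the 55487 genes in the deposited count tables and were matched by gene symbol. The set was chosen by values measured in these libraries, since Irgm2 was among the largest decreases in the group 2 Rpl5 mutant. For this reason the group 2 values against wildtype are given for the members as a description, without p-values, and counts of members past the threshold there are printed beside the share over all genes with nothing read from them.

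The study profiled fetal liver erythroid progenitors of mouse embryos at stage E12.5, wildtype or mutant for Rpl5, a gene for a large-subunit ribosomal protein. Its title names Diamond Blackfan anemia syndrome, in which red cell precursors fail to form. All 15 libraries came from fetal liver of strain 129S6/SvEvTac and were sequenced as bulk RNA. They form 5 sample groups of 3 libraries each. Group 1 mice gave wildtype and Rpl5 mutant libraries, labelled as polyA RNA. Group 2 mice gave wildtype, Rpl5 mutant and mutant low-yield libraries, labelled as total RNA. The sample sheet of group 2 writes the mutants' genotype as Rpl5plusSkax23Jus. The labels do not say what the yield of the low-yield mutants refers to, nor whether replicates came from separate embryos, so p-values measure the spread between these samples only. Because the RNA type differed, levels were not compared between group 1 and group 2 mice. In bulk RNA, fewer cells of a type and less RNA per cell cannot be told apart.

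Interferons bind surface receptors whose Janus kinases phosphorylate STAT proteins. Stat2 and Irf9 are subunits of ISGF3, a complex that binds the interferon-stimulated response element (ISRE), and the gamma-activated site (GAS) is a further element of interferon-responsive promoters. The targets include Irf1 and Irf7, which are themselves transcription factors of the pathway, Isg15, a ubiquitin-like protein that is joined to other proteins, Ifitm3, a membrane protein that limits virus entry, and the IRG GTPases, which act on membranes and on vacuoles that hold pathogens. Irgm1, Irgm2 and Igtp (also called Irgm3) are the regulatory members of the IRG family, and Irgm1 is known for its role in blood stem cells under interferon.

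The 3 IRG genes lie on mouse chromosome 11. In GRCm38 with the GENCODE M21 annotation, Irgm1 (ENSMUSG00000046879) spans chr11:48861968-48871683 on the minus strand. Igtp (ENSMUSG00000078853) spans chr11:58199556-58207591 and Irgm2 (ENSMUSG00000069874) chr11:58199618-58222782, both on the plus strand. The annotated extents of Igtp and Irgm2 overlap, because 1 annotated Irgm2 transcript starts inside Igtp, and the 2 genes share 162 exon bases. Of the 50-base stretches of Igtp transcripts, 11.8% also occur in Irgm2, and 6.79% of those of Irgm2 occur in Igtp, so the counts of this pair are uncertain where reads could be split between them. Irgm1 shared 0.310% of its 50-base stretches with any other gene.

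The sequence upstream of the members was searched for the ISRE core, which is TTTC, any 2 bases and TTTC (on the other strand GAAA, any 2 bases and GAAA), and for 2 forms of the GAS, which are TTC and GAA with any 3 or any 4 bases between them, each on both strands and with overlapping matches kept, in the 250 bases before each RefSeq start (GRCm38.p6). The following 30-base windows, in the direction of the gene, are shown because they hold the matches that the IRG genes, Stat2, Irf1 and Isg15 carry; capitals mark the matched bases.
Irgm1: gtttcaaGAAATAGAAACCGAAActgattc
Irgm2: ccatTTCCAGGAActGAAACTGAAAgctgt
Igtp: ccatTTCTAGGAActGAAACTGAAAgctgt
Stat2: ctggTTTCAGTTTCctTTCCCTAGAActca
Irf1: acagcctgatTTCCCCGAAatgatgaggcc
Isg15: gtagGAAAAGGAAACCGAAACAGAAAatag
The windows lie at chr11:48871428-48871457 on the minus strand (Irgm1), chr11:58214898-58214927 on the plus strand (Irgm2), chr11:58199507-58199536 on the plus strand (Igtp), chr10:128270272-128270301 on the plus strand (Stat2), chr11:53769914-53769943 on the plus strand (Irf1) and chr4:156200871-156200900 on the minus strand (Isg15). The Irgm1 window lies within an exon annotated in GENCODE M21. Of 32851 promoter windows of 250 bases, 2.98% held the ISRE core, 7.02% held the GAS and 5.85% held TTC and GAA with 4 bases between. No match to these letters was found in the windows of Irf7, Irf9 and Ifitm3.

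The 250-base windows of Igtp and Irgm2 are printed whole, because these neighbouring genes were low in the same libraries and their upstream sequences are alike; capitals mark the ISRE core.
Igtp, chr11:58199306-58199555, plus strand: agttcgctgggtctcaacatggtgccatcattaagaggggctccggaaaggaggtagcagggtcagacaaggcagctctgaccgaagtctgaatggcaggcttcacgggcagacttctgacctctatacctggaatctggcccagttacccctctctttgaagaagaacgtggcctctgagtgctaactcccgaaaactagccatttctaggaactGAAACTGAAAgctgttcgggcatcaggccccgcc
Irgm2, chr11:58214727-58214976, plus strand: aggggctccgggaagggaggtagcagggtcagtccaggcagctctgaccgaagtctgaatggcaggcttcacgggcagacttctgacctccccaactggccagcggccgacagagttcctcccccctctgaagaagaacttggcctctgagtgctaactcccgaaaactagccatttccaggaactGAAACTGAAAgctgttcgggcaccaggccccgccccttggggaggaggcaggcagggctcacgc
In a local alignment, which keeps only the best-matching stretch of the 250-base windows, 194 of 220 aligned columns (88.2%) were identical. A match of letters is a description of the sequence and no measurement of binding was made in these libraries.

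The libraries held 48510828 to 58513669 counts in group 1 and 24954324 to 44827821 in group 2. Rpl5 itself was lower in the mutants, with a log2 fold change of -0.32 ± 0.07 (SE; adjusted p = 0.00971) in group 1. In group 2 it was -0.46 ± 0.10 (0.0117) for the mutant and -0.44 ± 0.10 (0.0087) for the low-yield mutant (edgeR quasi-likelihood test, Benjamini-Hochberg adjustment, as for every adjusted p in this text). The 12 erythroid marker genes summed to 2708 to 7668 counts per 1000000 (CPM) over the 15 libraries, and to less in every mutant library than in any wildtype library of the same group of mice. Of the 12, edgeR called 1 higher and 9 lower in group 1, 1 higher and 4 lower in the group 2 mutant, and 1 higher and 6 lower in the low-yield mutant. Haemoglobin genes took 0.374% to 0.689% of counts in group 1 wildtype and 0.146% to 0.207% in the mutants, and 0.494% to 1.13% in group 2 wildtype, 0.270% to 0.348% in the mutants and 0.223% to 0.379% in the low-yield mutants. The share that this difference in erythroid transcripts had in the values below was not tested.

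Within group 1 wildtype, the members' order by CPM per kilobase of exon was Irf9 (4.40 ± 0.349, SD, n = 3), Stat2 (3.40 ± 0.144), Igtp (3.18 ± 0.377), Irgm1 (2.84 ± 0.470) and Irgm2 (1.40 ± 0.274), followed by Ifitm3 (0.298), Irf1 (0.231), Irf7 (0.222) and Isg15 (0.148). Stat2, Igtp and Irgm1 lay within each other's spread, as did the last 4. Exon length was the union of all annotated exons of a gene, so the order depends on which transcripts are annotated. The same 5 genes led in group 2 wildtype, where Irf9 had 4.58 ± 0.644 CPM per kilobase and Irgm2 1.95 ± 1.115. There Irgm1 (1.85 ± 0.196) lay next to Irgm2, within its spread.

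The IRG GTPases were lower in Rpl5 mutant than in wildtype progenitors of group 1. Irgm2 had 4.68, 6.32 and 4.49 CPM in the wildtype libraries and 1.58, 2.46 and 0.771 CPM in the mutants. The groups did not overlap, and the means were 5.16 ± 1.01 and 1.60 ± 0.844 CPM (SD, n = 3). The log2 fold change was -1.69 ± 0.32 (SE; edgeR adjusted p = 0.0062; 95% interval -2.39 to -0.98), which is 68.9% lower. It stayed between -2.14 and -1.35 and was called in each of 6 fits that left out 1 library.

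Igtp had 5.59, 7.07 and 6.63 CPM in group 1 wildtype and 3.69, 3.51 and 3.24 CPM in the mutants. The 2 groups did not overlap, and the mutant libraries were close to each other (3.48 ± 0.224 CPM, SD, n = 3, against 6.43 ± 0.763). The log2 fold change was -0.89 ± 0.19 (SE; edgeR adjusted p = 0.00979; 95% interval -1.29 to -0.48), or 46.0% lower. The call did not hold without wildtype replicate 2, where it was -0.82 with an edgeR adjusted p of 0.0556, or without mutant replicate 3, with an edgeR adjusted p of 0.0535. With the counts of Igtp and Irgm2 added together, so that shared reads do not matter, the pair had a log2 fold change of -1.19 (edgeR adjusted p = 0.00164).

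Irgm1 had 18.8, 17.2 and 13.5 CPM in group 1 wildtype and 9.46, 10.54 and 10.24 CPM in the mutants, again without overlap. The means were 16.5 ± 2.73 and 10.1 ± 0.559 CPM (SD, n = 3). This was a log2 fold change of -0.71 ± 0.14 (SE; edgeR adjusted p = 0.00783; 95% interval -1.02 to -0.40), or 38.8% lower, and all 6 fits with 1 library left out called it. Hepatocyte markers differed in the same comparison: the 8 genes summed to 34.3 to 62.4 CPM in group 1 wildtype and 7.43 to 23.2 CPM in the mutants, with a median log2 fold change of -1.29, and edgeR called 2 of 8 lower (Alb and Serpina1a). In group 2 they summed to 11.4 to 78.3 CPM in wildtype, 11.1 to 49.3 CPM in the mutants and 44.0 to 50.7 CPM in the low-yield mutants, and 0 of 8 were called. Their part in the IRG values was not tested. Of the 3 IRG genes Irgm2 had the lowest ratio of mutant to wildtype, with an interval that overlaps those of the other two.

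**Figure D1:**
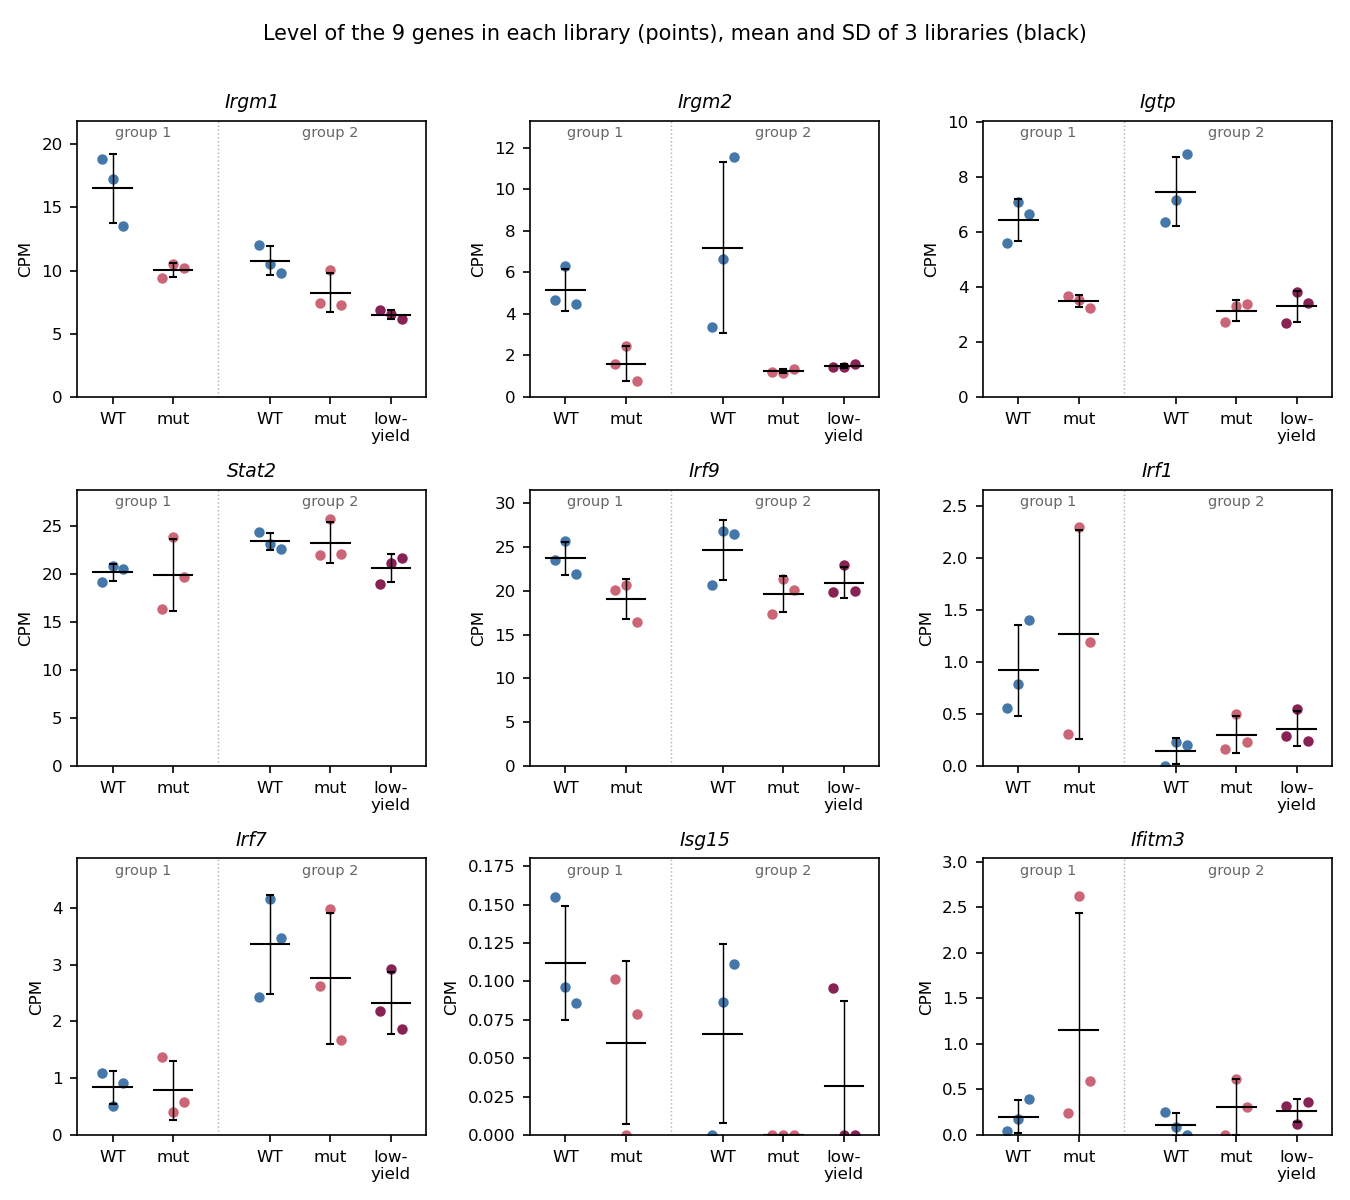
CPM (vertical axes) of the 9 members in each of the 15 libraries, 1 panel a gene, with points for libraries and bars for the mean and SD of the 5 sample groups (n = 3); ends of SD bars below 0 are not drawn. Irgm2 and Igtp were below wildtype in every mutant library of both groups of mice, Stat2 overlapped between mutant and wildtype in both while its low-yield libraries lay below wildtype, and Isg15 stayed near 0 throughout.

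In group 2 the same genes had these values, which are a description because group 2 values chose the set. Irgm2 had 3.38, 6.64 and 11.6 CPM in wildtype, 1.21, 1.16 and 1.37 CPM in the mutants, and 1.44, 1.43 and 1.58 CPM in the low-yield mutants. The wildtype libraries were far apart, with a coefficient of variation of 57.2%, and the 6 mutant libraries lay in a narrow range below all of them. The log2 fold change was -2.56 ± 0.42 (SE), or 83.0% lower, for the mutant and -2.31 ± 0.40, or 79.9% lower, for the low-yield mutant. Leaving out 1 library moved these to between -2.86 and -2.005 and to between -2.62 and -1.76. The 3 wildtype libraries had the same order for Irgm2 as for their haemoglobin share (0.494%, 0.876% and 1.13%). In group 1 wildtype the orders differed, as the library with the highest haemoglobin share had the lowest Irgm2.

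Igtp had 6.36, 7.16 and 8.82 CPM in group 2 wildtype, 2.72, 3.32 and 3.38 CPM in the mutants, and 2.69, 3.80 and 3.40 CPM in the low-yield mutants. No mutant library reached the wildtype range. Igtp differed by a log2 fold change of -1.25 ± 0.22 (SE), or 58.1% lower, in the mutant, and of -1.18 ± 0.22, or 56.0% lower, among low-yield libraries.

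Irgm1 had 12.02, 10.52 and 9.78 CPM in group 2 wildtype, 7.42, 10.1 and 7.31 CPM in the mutants, and 6.87, 6.54 and 6.16 CPM in the low-yield mutants. Mutant replicate 2 lay inside the wildtype range, while all low-yield libraries lay below it. Its log2 fold change was -0.39 ± 0.17 (SE) for mutant and -0.72 ± 0.17 for low-yield libraries. The mutant and the low-yield mutant were compared with the same 3 wildtype libraries, so these pairs of values are not independent of each other.

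**Figure D2:**
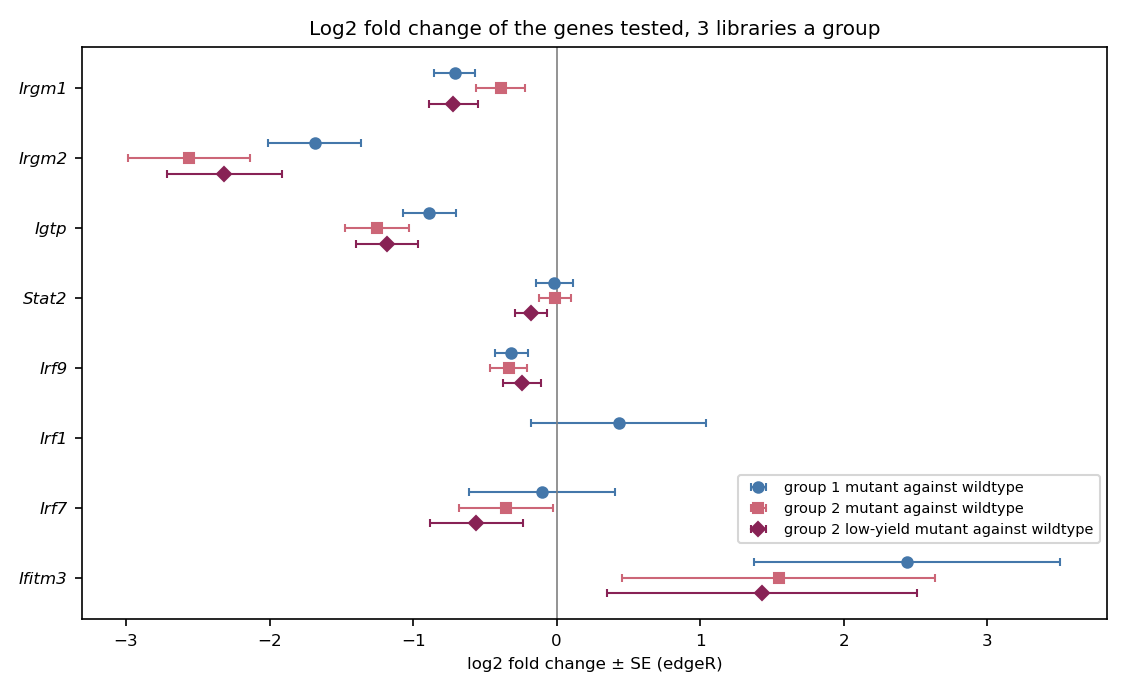
Log2 fold change against wildtype (horizontal axis) with its SE for each member that had enough counts to be fitted, in group 1, the group 2 mutant and the group 2 low-yield mutant, which share their wildtype. The 3 IRG genes lay below 0 in all 3 comparisons, Stat2 lay at or near 0 and Ifitm3 lay above 0 with wide error bars.

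Stat2 and Irf9, the 2 subunits of ISGF3 in the set, were measured at moderate levels in all libraries. Stat2 had 19.2, 20.8 and 20.5 CPM in group 1 wildtype and 16.3, 23.8 and 19.6 CPM in the mutants, so the mutants spanned the wildtype range. Its log2 fold change was -0.02 ± 0.13 (SE; edgeR adjusted p = 0.953), with a 95% interval from -0.30 to 0.27. In group 2 it had 24.4, 23.1 and 22.6 CPM in wildtype, 21.9, 25.7 and 22.1 CPM in the mutants, and 19.0, 21.2 and 21.6 CPM in the low-yield mutants. The low-yield libraries were all below the wildtype ones, by a log2 fold change of -0.18 ± 0.11 (SE), and the mutants were not (-0.01 ± 0.11).

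Irf9 had 23.6, 25.7 and 21.9 CPM in group 1 wildtype and 20.1, 20.6 and 16.4 CPM in the mutants. The groups did not overlap, but the log2 fold change of -0.31 ± 0.11 (SE; 95% interval -0.56 to -0.07) did not pass the edgeR test across all genes (adjusted p = 0.0949). With the replicate number as a block the value was -0.32 and passed (edgeR adjusted p = 0.0288). The labels do not say whether same-numbered libraries are pairs. In group 2, Irf9 had 20.7, 26.8 and 26.5 CPM in wildtype, 17.4, 21.4 and 20.1 CPM in the mutants and 19.8, 22.95 and 20.01 CPM in the low-yield mutants. Both mutant groups overlapped with wildtype there, with log2 fold changes of -0.33 ± 0.13 (SE) and -0.24 ± 0.13. Irf9 shares 123 exon bases with Rnf31 on the same strand, so its counts are uncertain where reads could belong to either gene.

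Irf1 and Irf7, the interferon-regulatory factors that are themselves induced by the pathway, were low. Irf7 had 1.08, 0.519 and 0.908 CPM in group 1 wildtype and 1.38, 0.403 and 0.573 CPM in the mutants, a log2 fold change of -0.10 ± 0.51 (SE; edgeR adjusted p = 0.925; 95% interval -1.21 to 1.01). In group 2 it had 2.44, 4.16 and 3.47 CPM in wildtype, 2.62, 3.98 and 1.68 CPM in the mutants and 2.17, 2.92 and 1.87 CPM in the low-yield mutants. The groups overlapped throughout, and the log2 fold changes were -0.35 ± 0.33 (SE) and -0.56 ± 0.33.

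Irf1 had 0.561, 0.788 and 1.40 CPM in group 1 wildtype and 0.304, 2.297 and 1.19 CPM in the mutants. The mutants lay on both sides of wildtype, with a log2 fold change of 0.43 ± 0.61 (SE; edgeR adjusted p = 0.695; 95% interval -0.93 to 1.799). Its sign rested on mutant replicate 2, without which the value was -0.32. In group 2 no library exceeded 0.548 CPM of Irf1, and it had too few counts to be fitted there. Irf1 overlaps an antisense transcript by 135 exon bases and Irf7 overlaps the antisense gene Phrf1 by 45, and the strand setting of the counting is not given in the sources used here.

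Isg15, the ubiquitin-like effector, was at or near 0. It had 8, 5 and 5 counts in group 1 wildtype and 5, 0 and 4 in the mutants. In group 2 it had 0, 3 and 5 counts in wildtype, 0 in each of the 3 mutants, and 3, 0 and 0 in the low-yield mutants. These counts are too few for a fit, and a difference in Isg15 was not detectable at this depth.

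Ifitm3, the restriction factor at the membrane, had 2, 9 and 23 counts in group 1 wildtype and 12, 130 and 30 in the mutants. The groups overlapped, and the log2 fold change of 2.44 ± 1.07 (SE; 95% interval -0.03 to 4.92) did not pass the edgeR test (adjusted p = 0.188). It passed with the replicate number as a block (2.40, edgeR adjusted p = 0.00474) and without mutant replicate 1 (2.92, edgeR adjusted p = 0.0462), and was 0.99 without mutant replicate 2. In group 2 it had 8, 3 and 0 counts in wildtype, 0, 16 and 12 in the mutants and 10, 4 and 15 in the low-yield mutants, with log2 fold changes of 1.55 ± 1.09 (SE) and 1.43 ± 1.08.

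Ifitm3 is also made by myeloid cells, and markers of such cells differed between libraries. The 12 granulocyte and monocyte markers summed to 80.3, 545 and 474 CPM in group 1 wildtype and 142, 1118 and 626 CPM in the mutants. Mutant replicate 2 was the highest library for both Ifitm3 and these markers. In group 2 the markers summed to 6.79 to 15.5 CPM in wildtype, 54.5 to 148 CPM in the mutants and 100.3 to 175 CPM in the low-yield mutants, where 8 and 10 of 10 fitted markers were called higher (0 of 12 in group 1). Their part in the Ifitm3 values was not tested. Of the 12 macrophage markers, 4 were fitted and none was called by edgeR in the 3 comparisons with wildtype, with median log2 fold changes of 0.44 in group 1, 0.92 in the group 2 mutant and 1.57 in the low-yield mutant. They summed to 1.49 to 7.34 CPM in group 1 wildtype and 2.05 to 13.3 CPM in the mutants, and to 0.949 to 4.10 CPM in group 2 wildtype, 2.08 to 6.06 CPM in the mutants and 3.47 to 6.17 CPM in the low-yield mutants. Cd5l and Timd4 were at 0 in every library, and the other 10 were detected in at least 1 group.

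Over the set, 8 members could be fitted in group 1, where 3 were called lower (Irgm1, Irgm2 and Igtp) and 0 higher. Among all 14048 genes fitted there, 5.79% were called higher and 6.78% lower. In 4 members (the same 3 and Irf9) all mutant libraries lay wholly below wildtype, as they did in 16.6% of all genes. The median log2 fold change of the 8 members was -0.21, against 0.01 for all genes. Isg15 was the member left out for low counts.

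In the group 2 mutant, 7 members could be fitted, since Irf1 and Isg15 had too few counts, and 2 passed the call threshold as lower (Irgm2 and Igtp). The background was 3.32% of 15024 genes called higher and 2.95% lower, and 11.8% of genes had all mutant libraries below wildtype, as did 2 members. In the low-yield mutant, 3 of 7 passed it as lower (the 3 IRG genes) and 4 lay wholly below wildtype (these and Stat2). The background there was 6.68% called higher and 5.86% lower, with 14.6% wholly below. The medians over the 7 members were -0.35 and -0.56. Both sets of counts are a description and no finding, as the set was chosen on the mutant contrast and the low-yield contrast uses the same wildtype libraries.

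The low-yield and the other mutants were also compared directly. None of the 7 fitted members was called by edgeR (adjusted p = 1.00 for each) on a background of 0.00% of genes called. At an unadjusted p under 0.05 there were 0 of 7 members and 480 of 15024 genes; DESeq2 called 6 genes over the whole table and limma voom 4. Irgm1 and Stat2 were lower in all 3 low-yield libraries than in any mutant library, as were 4.15% of genes, and Irgm2 was higher in all 3, as were 4.07%. The log2 differences had 95% intervals of -0.71 to 0.05 for Irgm1, -0.41 to 0.07 for Stat2, -0.96 to 1.45 for Irgm2 and -0.47 to 0.61 for Igtp. The mutant libraries in this comparison are those whose low Irgm2 chose the set, so it is not free of that choice either.

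Whether the mutants differed from wildtype by another amount in group 2 than in group 1 was tested as an interaction over 12 libraries. None of 8 fitted members was called by edgeR, on a background of 0.0188% of all genes. At an unadjusted p under 0.05 there were 0 of 8 members and 342 of 15954 genes. The difference of the log2 fold changes was 0.34 (95% interval -0.15 to 0.83) for Irgm1, -0.86 (-2.39 to 0.66) for Irgm2 and -0.35 (-0.95 to 0.25) for Igtp. Group 2 values chose the set, so this comparison is not free of that choice.

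Neighbouring genes were examined because the 3 IRG genes lie at 2 places on the same chromosome. Within 250 kb of Irgm1 there were 24 other genes, 7 of them at 0 in all libraries. Of these, 7 were fitted in group 1 and 6 in group 2, and none was called by edgeR in any comparison. Irgm1 was not the lowest gene there, since Ifi47, another IRG gene described with its values further on, had lower but uncalled log2 fold changes. Within 250 kb of the Igtp and Irgm2 pair there were 22 other genes. Zfp692 was the called neighbour among 10 fitted in group 1, with 46.4 ± 0.503 CPM in wildtype and 38.1 ± 1.29 CPM in the mutants (SD, n = 3; log2 fold change -0.28, edgeR adjusted p = 0.0237). In group 2, 11 were fitted, 0 were called in the mutant, and 4930438A08Rik was called in the low-yield mutant, with 13, 18 and 14 counts against 0, 0 and 0 in wildtype. This is at least 15.7-fold higher, taking 3 counts over the wildtype group as the floor (edgeR adjusted p = 0.012). Within 1000 kb of the pair, 5 of 33 fitted genes were called lower and 0 higher in group 1. In the group 2 mutant these were 1 and 0 of 37, and in the low-yield mutant 4 and 1 of 37. Among all genes 6.78%, 2.95% and 5.86% were called lower in these comparisons, and 5.79%, 3.32% and 6.68% higher. Within 1000 kb of Irgm1 the lower and higher calls were 1 and 1 of 14, 0 and 1 of 13, and 1 and 1 of 13.

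**Figure D3:**
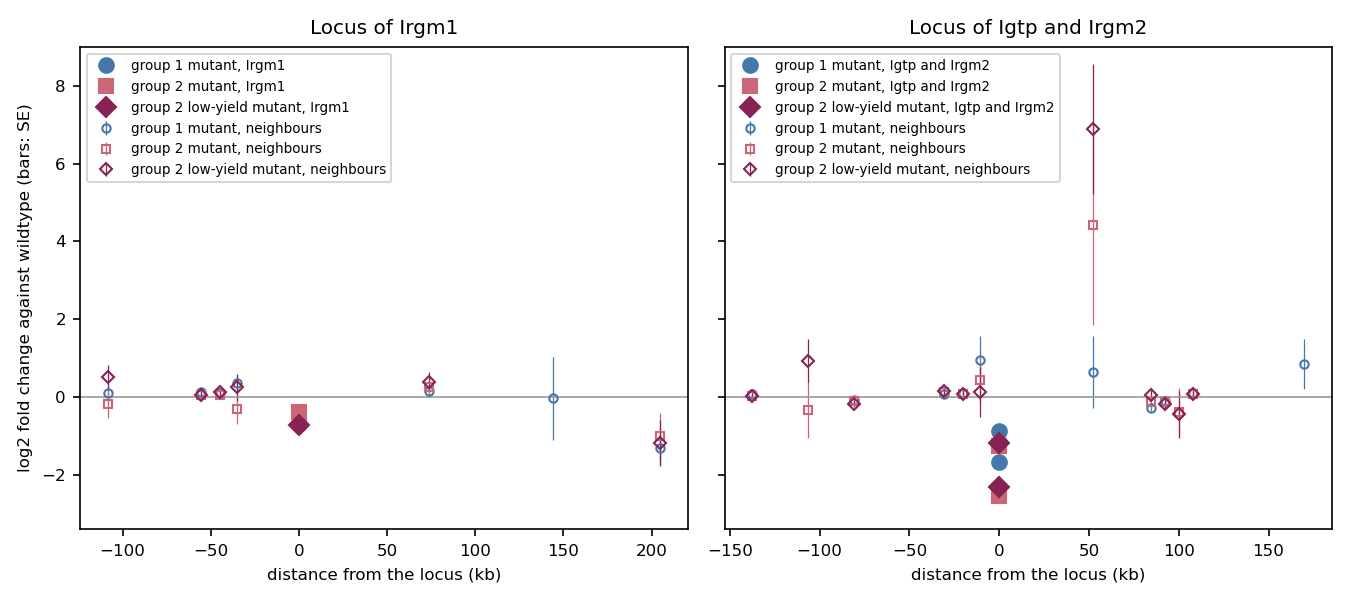
Log2 fold change against wildtype (vertical axis) of fitted genes within 250 kb of Irgm1 and of the Igtp and Irgm2 pair, by distance in kb (horizontal axis), for group 1, the group 2 mutant and the low-yield mutant. Igtp and Irgm2 lay below all fitted neighbours, Irgm1 lay below all but Ifi47, and the called neighbours were Zfp692 in group 1 and 4930438A08Rik in the low-yield mutant.

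Other genes of the pathway were followed in 9 lists, from ligands to effectors, which held 182 genes of the tables besides the members, 34 of them at 0 in every library. Of the 103 genes fitted in group 1, 3 were called higher (2.91%, against 5.79% of all genes) and 9 lower (8.74%, against 6.78%). Of the 94 fitted in group 2, 3 were called higher (3.19%, against 3.32%) and 3 lower (3.19%, against 2.95%) in the mutant. In the low-yield mutant 5 were higher (5.32%, against 6.68%) and 12 lower (12.8%, against 5.86%). With the replicate number of group 1 as a block, 10 were called higher (9.71%, against 10.5% of all genes) and 13 lower (12.6%, against 9.92%) there. The group 1 total of 12 was 7 without wildtype replicate 2 or mutant replicate 3. The group 2 mutant total of 6 was 10 without wildtype replicate 1, 2 without wildtype replicate 3, and 3 without low-yield replicate 1. It was 0 when wildtype replicate 2, mutant replicate 1 or mutant replicate 3 was left out. The low-yield total of 17 was 4 without wildtype replicate 2 or low-yield replicate 2, 7 without wildtype replicate 3, 11 without mutant replicate 3 and 2 without low-yield replicate 1. The medians over these genes lay between -0.03 and -0.00. The interferon genes themselves were almost silent, since 19 of 21 ligand genes were at 0 in all libraries and none could be fitted.

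The receptor and kinase list is short, and its counts do not show that these genes were equal between groups. Of 9 such genes fitted in group 1 and 8 in group 2, edgeR called 0 in group 1, 0 in the group 2 mutant and 1 in the low-yield mutant, which was Jak1, a kinase of several cytokine receptors (log2 fold change -0.25, adjusted p = 0.0493). At an unadjusted p under 0.05 there were 1, 2 and 3 such genes, where all genes gave 3846 of 14048, 3071 of 15024 and 3984 of 15024. Neither chain of the type I receptor (Ifnar1, Ifnar2) nor of the gamma receptor (Ifngr1, Ifngr2) was called. Among signalling factors, Nfkb1, a subunit of NF-kappaB, was higher in all 3 comparisons with wildtype, with log2 fold changes of 0.48, 0.40 and 0.45 (edgeR adjusted p = 0.00107, 0.0374 and 0.0124). Rela, its partner subunit, was lower in group 1 (-0.36, edgeR adjusted p = 0.0036). It was also lower among low-yield libraries (-0.27, edgeR adjusted p = 0.0398) and not called in the group 2 mutant (-0.19, edgeR adjusted p = 0.194).

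The antiviral effectors were the longest list. In group 1, 35 of its 60 genes were fitted, 1 was called higher (2.86%, against 5.79% of all genes) and 5 lower (14.3%, against 6.78%), with a median of -0.10. With the replicate block 2 of 35 were higher and 7 of 35 lower, where 10.5% of all genes were called higher and 9.92% lower. In the group 2 mutant 1 of 30 was higher and 1 lower (3.33% each, against 3.32% and 2.95%), with a median of -0.07, and in the low-yield mutant 0 were higher and 4 lower (13.3%, against 5.86%). Ube2l6, the conjugating enzyme for Isg15, fell by 0.89 on the log2 scale, from 25.4 ± 2.29 to 13.7 ± 0.659 CPM (SD, n = 3; edgeR adjusted p = 0.000467). Cmpk2, a mitochondrial nucleotide kinase induced by interferon, fell from 17.6 ± 1.73 to 9.56 ± 1.12 CPM (log2 fold change -0.88, edgeR adjusted p = 0.00167). Pml, the scaffold of nuclear bodies, had a log2 fold change of -0.47 (edgeR adjusted p = 0.00107). Znfx1, a helicase-like RNA sensor, was at -0.45 (0.0166, called in 4 of 6 fits without 1 library), and Parp9, a regulator of interferon signalling, was at -0.53 (0.0351, called in 0 of those 6 fits).

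Bst2 (tetherin), which holds budding virus at the cell surface, went the other way. It rose from 6.31 ± 0.959 to 13.0 ± 3.13 CPM in group 1 (SD, n = 3; log2 fold change 1.05 ± 0.19 SE; edgeR adjusted p = 0.00448) and also in the group 2 mutant (0.75, edgeR adjusted p = 0.0222), and was not called in the low-yield mutant (0.45, edgeR adjusted p = 0.12). Psmb10, an immunoproteasome subunit, rose in group 1 (0.43, edgeR adjusted p = 0.00343). The interferon-induced genes called in group 1 therefore held members of both directions.

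In the group 2 mutant, the called list genes were Aim2, a sensor of cytosolic DNA (1.39, edgeR adjusted p = 0.0461), Bst2 and Nfkb1 as higher, and H2-T23, a non-classical MHC class I gene (-0.70, 0.0364), Pml (-0.35, 0.0227) and Ptpn11, a phosphatase (-0.32, 0.018), as lower. Each lost its call in at least 3 of 9 fits without 1 library. In the low-yield mutant, the transmembrane genes Ifitm1 (2.23, edgeR adjusted p = 0.0103) and Ifitm2 (0.57, 0.0493) were higher, with Samhd1, a nucleotide hydrolase (0.29, 0.0277), and Ptpn2, a phosphatase that acts on Janus kinases (0.33, 0.0329). Tapbp, which loads MHC class I, was lower (-0.51, edgeR adjusted p = 0.00255), as was H2-T23 (-0.64, 0.0305). Of 9 fits without 1 library, the call was lost in 1 for Ifitm1, 7 for Ifitm2, 5 for Samhd1, 6 for Ptpn2 and H2-T23, and 0 for Tapbp. The granulocyte markers given above were also higher in these libraries. So were endothelial markers, of which 3 of 4 fitted were called higher in the low-yield mutant (Tek, Pecam1 and Kdr; 0.896 to 1.90 CPM summed in wildtype, 6.45 to 10.01 CPM in low-yield libraries), megakaryocyte markers, 4 of 6 (15.9 to 18.8 and 37.3 to 48.1 CPM), and the leukocyte gene Ptprc. The part of these cell types in the Ifitm1 and Ifitm2 values was not tested. In group 1 Ifitm1 was not called (2.02, edgeR adjusted p = 0.170), but passed with the replicate block (2.00, edgeR adjusted p = 3.77e-06). Ifitm2 passed neither there (edgeR adjusted p = 0.347, and 0.363 with the block).

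**Figure D4:**
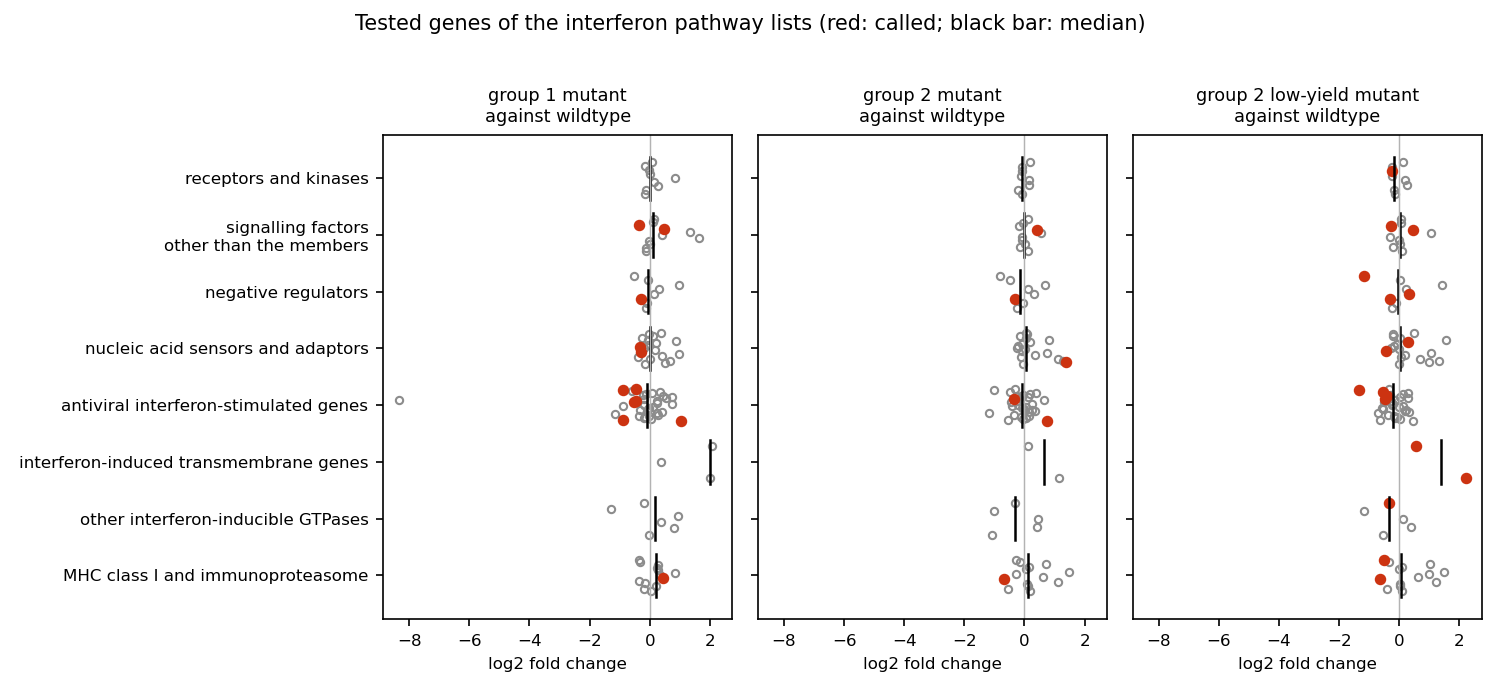
Log2 fold change against wildtype (horizontal axis) of each fitted gene of the 8 pathway lists that had fitted genes, members left out, in group 1, the group 2 mutant and the low-yield mutant; red points were called, black bars are list medians. The transmembrane list, with 3 fitted genes in group 1 and 2 in group 2, had its median above 0 in all 3 panels, and the antiviral list had medians of -0.10 (group 1), -0.07 (group 2 mutant) and -0.19 (low-yield mutant); the leftmost point in group 1 is Rsad2, at 0 in every mutant library, whose fitted value is no bound.

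The genes that attach and remove Isg15 were looked at together after their values were seen. Ube2l6 had 23.1, 25.6 and 27.7 CPM in group 1 wildtype and 14.5, 13.3 and 13.4 CPM in the mutants. Its group 2 levels were 23.3, 37.4 and 48.5 CPM in wildtype, 17.4, 15.5 and 21.3 CPM in the mutants and 11.6, 12.2 and 18.7 CPM in the low-yield mutants. No mutant library of either group of mice reached its wildtype range. The log2 fold change was -1.01 in the group 2 mutant, which did not pass the edgeR test (adjusted p = 0.0626), and -1.35 ± 0.28 (SE) in the low-yield mutant, which did (edgeR adjusted p = 0.0122). In wildtype of both groups of mice its order over the libraries was that of the haemoglobin share, and in group 2 wildtype also that of Irgm2. Within the mutant groups its order differed from that of the haemoglobin share.

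Uba7, the activating enzyme, had 20.5, 21.2 and 31.5 CPM in group 1 wildtype and 14.97, 19.3 and 14.8 CPM in the mutants (-0.58, edgeR adjusted p = 0.0789; with the replicate block -0.56 and 0.0468). Group 2 wildtype had 24.7, 23.6 and 27.9 CPM, with 14.8, 24.1 and 16.3 CPM in the mutants (-0.48, edgeR adjusted p = 0.0807) and 17.8, 17.8 and 17.5 CPM in the low-yield mutants (-0.52, edgeR adjusted p = 0.0349). Only mutant replicate 2 of group 2 reached its wildtype. Usp18, the protease that removes Isg15 and that also restrains the type I receptor, had values of -0.53 (edgeR adjusted p = 0.281) in group 1, -0.81 (0.174) in the group 2 mutant and -1.17 ± 0.34 (SE; 0.0335) in the low-yield mutant. Herc6, the ligase, had means of 10.4 ± 0.508 and 8.17 ± 0.950 CPM in group 1 wildtype and mutant (SD, n = 3) and 6.998 ± 0.420, 5.58 ± 0.968 and 5.40 ± 0.444 CPM in group 2 wildtype, mutant and low-yield mutant. It was not called by edgeR (-0.35, -0.33 and -0.37, adjusted p = 0.131, 0.347 and 0.216). Without 1 library the low-yield call was lost in 2 of 9 fits for Ube2l6 and in 5 of 9 for both Uba7 and Usp18. The enzymes were thus measured at well above the counts of Isg15 itself, and the calls among them without the block were Ube2l6 in group 1 and Ube2l6, Uba7 and Usp18 in the low-yield mutant.

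**Figure D5:**
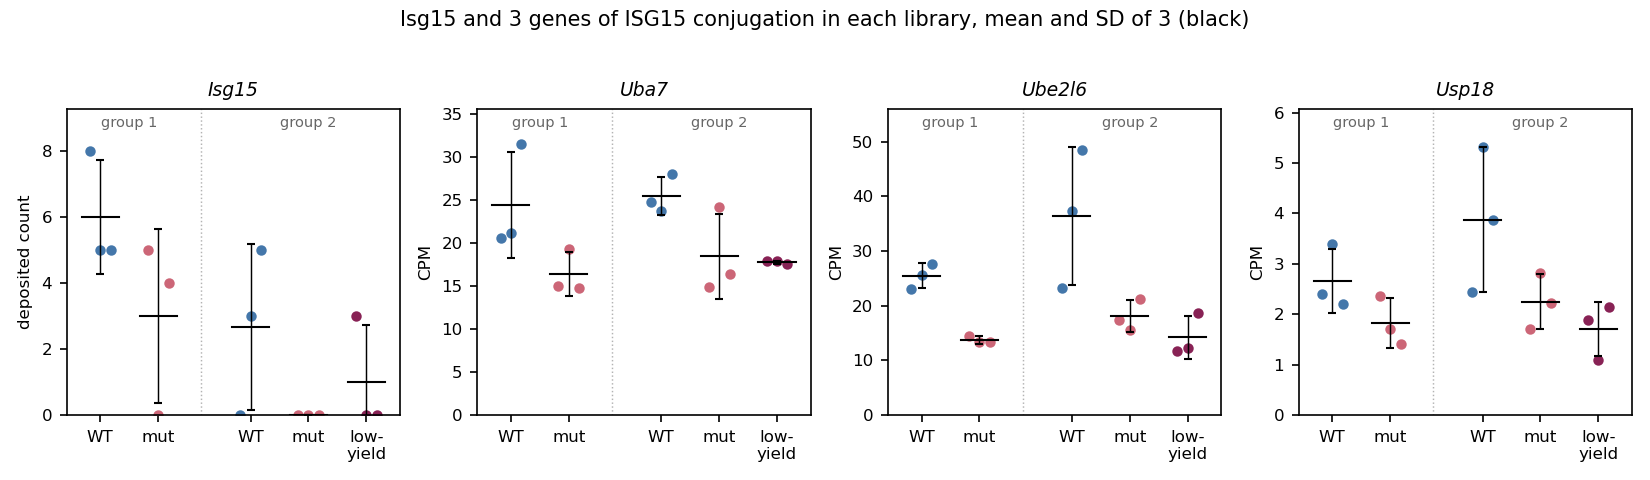
Isg15 counts and CPM of Uba7, Ube2l6 and Usp18 (vertical axes) in each library by sample group, with the mean and SD (n = 3). Isg15 had at most 8 counts in any library, while Ube2l6 lay between 11.6 and 48.5 CPM, with every mutant library below the wildtype libraries of its own group of mice.

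Of the other IRG and guanylate-binding GTPases, 7 of 25 genes were at 0 in every library, 6 could be fitted in group 1 and 5 in group 2. By edgeR, 0 were called in group 1 and in the group 2 mutant, and Irgq, a quasi-GTPase of the family, was called in the low-yield mutant (-0.35, adjusted p = 0.0293). Against the shares of all genes called lower (6.78%, 2.95% and 5.86%), counts of 0 or 1 among so few genes say nothing about the family. Ifi47, the IRG gene beside Irgm1, named after its values were seen, had 1.18, 1.096 and 0.822 CPM in group 1 wildtype and 0.466, 0.282 and 0.494 CPM in the mutants, and did not pass the edgeR test (-1.30 ± 0.44 SE, adjusted p = 0.0783). Its groups did not overlap in group 1, and in group 2 its log2 fold changes were -1.01 (edgeR adjusted p = 0.373) and -1.18 (0.224). Gbp7, a guanylate-binding protein likewise named after its values were seen, was at 0.37, 0.43 and 0.39 in the same comparisons (edgeR adjusted p = 0.171, 0.114 and 0.117); with the replicate block it passed in group 1 (0.36, edgeR adjusted p = 0.0469). Rsad2, the antiviral enzyme viperin, had 24, 12 and 91 counts in group 1 wildtype and 0 in each mutant, and was not called (edgeR adjusted p = 0.0766), but passed with the replicate block (edgeR adjusted p = 0.000622). The block did not change the group 1 side of the threshold for Usp18, Herc6 or Ifi47 (edgeR adjusted p = 0.184, 0.0827 and 0.0543).

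Across libraries the genes most like Irgm2 were ranked by the mean of the Pearson correlations of log2 CPM over the 6 libraries of group 1 and the 9 of group 2, among 11038 genes. All libraries of a group share the difference between wildtype and mutant, so these values are a description. The 5 highest were Hjurp (0.968), Ehbp1l1 (0.957), Gucd1 (0.956), Kansl3 (0.954) and Dag1 (0.950). Igtp ranked 31 of these genes (0.933), Irf9 189 (0.888), Irgm1 1308 (0.721) and Stat2 4180 (0.253). The value for Igtp rests on counts that may share reads with Irgm2.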

How the data were processed

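Bulk RNA-seq of 15 libraries was analysed from 2 deposited tables of expected counts per gene, 1 for each group of mice. The submitters' processing notes name RSEM 1.3.3, cutadapt 2.3, FastQC 0.11.8, STAR 2.7.8a, MultiQC 1.7 and GRCm38, without giving their roles. The expected counts deposited by the authors were whole numbers, so rounding changed nothing. The 9 genes and all lists were chosen with earlier results of these data known.

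Genes with enough counts (filterByExpr) were fitted with edgeR 4.0.16 in R 4.3.3 (TMM, robust quasi-likelihood test, Benjamini-Hochberg over all fitted genes, threshold 0.05), group 1 and group 2 separately and jointly for the interaction. CPM are counts per 1000000 TMM-scaled counts. The fits were tested on simulated data. Alternatives were DESeq2 1.42.0, limma 3.58.1 voom, other scalings and filters, a replicate block, and leaving out each library. Same-numbered group 1 libraries deviated from their group means together, with correlations of 0.441, 0.186 and 0.146. Wildtype and mutant libraries of group 1 with different numbers had correlations of -0.349 to 0.230. In group 2 same-numbered libraries had -0.0681 to 0.241. No label gives a pairing and these correlations do not settle it, so results with the replicate block depend on an assumed pairing. No library pair agreed within sampling noise. Rows for reporter sequences, with at most 2 counts, were not used.

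Named were all 9 genes; of the lists, up to 5 higher and 5 lower called genes a comparison with a mean of at least 1 CPM and groups that did not overlap, by fold change; called neighbours; and the 5 genes most like Irgm2. Other genes are marked in the text or stand in a count of 5 or fewer. Promoter sequences are from RefSeq (GRCm38.p6), where all 9 genes matched. Gene positions are from GENCODE M21, which 55227 of 55487 genes matched. Counting strand was not given in the sources used here. Intervals were computed with Python 3.11.15 from the edgeR errors.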

Additional observations from a re-analysis of the deposited data

How the results depend on the processing

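In group 1 the calls of Irgm1, Irgm2 and Igtp held under each other tool, scaling, filter or block that could be fitted (a minimum of 5 CPM removes Irgm2 and Igtp), and with 1 library left out Igtp alone lost its call, as given in the report. Genes called in group 1 were 1766, and 2863 with the replicate block; in the group 2 mutant 942, against 1452 with DESeq2 and 2000 with voom; in the low-yield mutant 1884, against 3399 with voom; between the mutants 0, against 6 with DESeq2 and 4 with voom; and for the interaction 3, against 12 with DESeq2 and 5 with the block. Without 1 library the counts were 753 to 1729, 425 to 1323, 900 to 2395, 0 to 22 and 2 to 3. Called list genes were 12 in group 1 (DESeq2 19, block 23, 7 to 16 without 1 library), 6 in the group 2 mutant (DESeq2 11, voom 16, block 10, 0 to 10) and 17 in the low-yield mutant (voom 29, its own 6 libraries 11, 2 to 21). The cause of these shifts was not tested. Irf9 in group 1 also passed with voom (-0.38, adjusted p = 0.0392) and Ifitm3 with DESeq2 (2.51, 0.0403). The sum of Igtp and Irgm2 counts had -1.75 and -1.63 in group 2. Signs turned for values near 0: Stat2 in the group 2 mutant with a minimum of 5 CPM (1.79e-05); between the mutants with voom Igtp (-0.0393), Irf7 (0.15) and Ifitm3 (0.62); and in the interaction Stat2 with DESeq2's scaling (-0.00502) and DESeq2 (-0.00273) and Irf9 with voom (0.0477) and the block (0.00555). Without 1 library the ranges crossing 0 were, in group 1, Stat2 -0.17 to 0.11, Irf1 -0.32 to 0.90 and Irf7 -0.78 to 0.21; in the group 2 mutant Stat2 -0.0861 to 0.0338; between the mutants Igtp -0.0288 to 0.19, Irf7 -0.51 to 0.13 and Ifitm3 -0.66 to 0.64; and in the interaction Stat2 -0.13 to 0.16, Irf1 -0.0299 to 1.22, Irf7 -0.58 to 0.40, Irf9 -0.14 to 0.0612 and Ifitm3 -1.82 to 0.57. Isg15 had at most 8 counts in any library and was too low for a fit, and every interval rests on 3 libraries a group.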
